A study of Mus musculus with 8 samples.

Results

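The 36 genes described here encode the rod and cone phototransduction machinery or the transcription factors of these cells, and were taken by symbol from the 33696 genes that each library measured. They comprise 12 genes of rods, 12 genes of cones and 12 genes shared by both photoreceptor types. All 36 were found in the files. Each was followed in rod nuclei, in cone nuclei, in other retinal nuclei and in the RNA that floats free in empty droplets, and was then compared between genotypes within rods and within cones. Rods and cones were recognised by gates on unique molecular identifiers (UMIs, tags that mark single captured RNA molecules) of marker genes. 7 members (Nrl, Nr2e3, Arr3, Gnat2, Pde6h, Pde6c and Cngb3) were themselves gate genes, so between cell classes they are given apart from the other 29.

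The data are 8 libraries of single-nucleus RNA sequencing made with the 10x Genomics 3′ chemistry, each from 6 pooled retinae of mice at postnatal day 120. The 4 control libraries (replicates 1 to 4) came from Piezo2f/f mice, in which both alleles of the mechanosensitive channel gene Piezo2 are floxed. The 4 cKO libraries (replicates 10 to 13) came from Olig2-cre;Piezo2f/f mice, which carry the same floxed alleles and in addition Cre recombinase knocked into the Olig2 gene, so that Olig2 itself is disrupted on that allele and Cre acts in cells of the Olig2 lineage. All mice were on a C57BL/6J background, and per the study's methods the sequenced animals were female. Nuclei had been sorted with antibodies against NeuN and RBPMS to enrich retinal ganglion cells (RGCs), so photoreceptors are nuclei that passed a sort made for other cells, and p-values measure the spread between these pools.

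In phototransduction, light changes an opsin, the opsin activates the G protein transducin, and transducin releases the cGMP phosphodiesterase PDE6 from its inhibitory subunit. The fall in cGMP closes cyclic nucleotide-gated (CNG) channels in the outer segment. Kinases, arrestins and the RGS9 complex end the response, and guanylate cyclases with their calcium-sensing activators restore cGMP. Rods and cones use largely separate sets of paralogous genes for the same steps.

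Total depth was 35697629 to 60088630 UMIs per library, and 2211 to 5315 nuclei per library were kept. Gates placed 2158 nuclei in rods (108 to 437 per library, median depth 903 to 1359.5 UMIs) and 685 in cones (31 to 142 per library, median depth 1674 to 3472 UMIs). They also placed 19569 in RGCs, 1341 in bipolar cells, 1327 in amacrine cells and 1535 in glia, and 627 photoreceptors met neither the rod nor the cone gate. Of 34935 barcodes kept, 34796 were distinct, and any pair of libraries shared at most 11. Free RNA was read from 45000 empty droplets per library (3166877 to 6016971 UMIs). Its summed level of 8 lens genes stood apart in control replicates 2 and 3, at 2672 and 7234 CPM (UMIs scaled to a common library total). The other 6 libraries held 61.6 to 318.8 CPM. With either of these control libraries left out in turn, 0 members were called between genotypes and 27 between rods and cones, as with all libraries. They were not left out together. Piezo2, the targeted gene, had 10 UMIs in control and 5 in cKO rods (7.26 ± 5.41 and 2.58 ± 2.36 CPM, SD, n = 4, overlapping). It had 6 UMIs in each group's cones, and in control and cKO RGCs 13.7 ± 1.82 and 12.7 ± 3.05 CPM, also overlapping. These values do not check the labels. The study found Olig2 absent from the retina, and a 3′ tag need not fall inside the deleted exons. Olig2 had 0 UMIs in rods and cones, which allows up to 0.534 CPM.

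Before the levels, the upstream sequence of the members was read from the GRCm39 genome at the start of each gene's canonical GENCODE transcript, which for some members (Gnb1, Gngt1, Gngt2, Pde6h, Opn1sw and Thrb among them) lies inside the span of the gene as set by its other transcripts. The letters searched were TAATCC and, on the other strand, GGATTA, the core that CRX, the homeodomain factor of photoreceptors, is known to bind. Within 200 bases upstream of the start, 12 of 35 members (34.3%) held them, against 5.51% of 21247 protein-coding genes searched alike. By class it was 4 of 11 rod members, 3 of 12 cone members and 5 of 12 shared members. A second motif, TGCTGA or TCAGCA on the other strand, part of the element bound by the rod factor NRL, was present in 7 of 35 members (20%) and in 12.2% of all. Pde6a was left out of this search. A match is a description of letters only. The forms TAATCC and GGATTA can overlap in the letters TA. The other 23 members searched held no match, among them Thrb, Pde6b, Cnga1, Gnat1, Gnb1, Rcvrn, Nrl, Opn1sw, Opn1mw, Cnga3 and Gngt2. The upstream 200 bases of 6 members chosen because they hold a match are shown to let the matches be seen in place, with TAATCC or GGATTA in capitals, 5′ to 3′ on the strand of the gene.
Gngt1, chr6:3993592-3993791, plus strand: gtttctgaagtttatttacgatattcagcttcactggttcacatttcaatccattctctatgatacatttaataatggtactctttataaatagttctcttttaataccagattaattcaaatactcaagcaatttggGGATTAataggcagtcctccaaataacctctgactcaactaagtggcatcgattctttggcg
Pde6g, chr11:120344327-120344526, minus strand: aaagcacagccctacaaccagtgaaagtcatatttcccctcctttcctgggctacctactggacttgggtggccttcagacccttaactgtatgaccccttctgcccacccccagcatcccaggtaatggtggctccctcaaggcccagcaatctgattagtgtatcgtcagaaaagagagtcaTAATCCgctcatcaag
Cngb1, chr8:96033214-96033413, minus strand: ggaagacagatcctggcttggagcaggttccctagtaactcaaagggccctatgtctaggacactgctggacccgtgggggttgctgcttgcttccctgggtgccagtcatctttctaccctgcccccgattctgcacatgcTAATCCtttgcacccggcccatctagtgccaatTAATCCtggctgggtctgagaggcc
Gucy2f, chrX:140979998-140980197, minus strand: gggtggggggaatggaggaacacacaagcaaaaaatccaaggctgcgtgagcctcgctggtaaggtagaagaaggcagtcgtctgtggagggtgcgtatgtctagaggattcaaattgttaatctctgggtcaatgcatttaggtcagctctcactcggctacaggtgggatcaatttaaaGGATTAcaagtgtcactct
Abca4, chr3:121837892-121838091, plus strand: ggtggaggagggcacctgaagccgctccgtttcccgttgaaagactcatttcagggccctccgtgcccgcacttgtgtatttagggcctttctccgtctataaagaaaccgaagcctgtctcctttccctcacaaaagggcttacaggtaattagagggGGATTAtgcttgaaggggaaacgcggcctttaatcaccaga
Gnb3, chr6:124817239-124817438, minus strand: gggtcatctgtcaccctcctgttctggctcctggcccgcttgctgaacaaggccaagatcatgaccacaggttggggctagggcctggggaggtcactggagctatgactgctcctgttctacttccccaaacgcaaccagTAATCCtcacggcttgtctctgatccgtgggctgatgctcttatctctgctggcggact
Cngb1 carried 2 matches in this window and the others 1 each.

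Rods and cones were compared first, in a fit that held the library fixed. A level in CPM gives how many of every 1000000 UMIs in a class's summed nuclei belonged to the gene. Calls required both an adjusted p below 0.05 and a log2 difference beyond 0.5 in size. Of the 29 members outside the gates, 21 were higher in rods and 6 lower, whereas of all 6351 genes tested 13.5% were higher and 16.1% lower. All 10 rod members outside the gates rose in rods, with a median log2 difference of 2.67, and 11 of 12 shared members rose, with a median of 1.20. Of 7 cone members outside the gates, 6 were lower in rods. The median over all genes tested was -0.0043. Crx (log2 difference 0.23 ± 0.11 (SE; edgeR adjusted p = 0.126)) and the thyroid hormone receptor gene Thrb (-0.20 ± 0.11 (SE; edgeR adjusted p = 0.183)) were not called.

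Among rod transducin genes, Gnat1 (the rod alpha subunit) stood at 814 ± 83.9 CPM in rods and 143 ± 49.4 CPM in cones (mean ± SD, n = 8 libraries). The log2 difference was 2.41 ± 0.14 (SE; edgeR adjusted p = 2.32e-10). Gnb1, whose beta subunit also serves other G proteins, differed by 2.72 ± 0.12 and the rod gamma subunit gene Gngt1 by 1.73 ± 0.12 on the log2 scale (SE; both called). The cone counterparts went the other way. Gnb3, the cone beta subunit gene, was at 45.7, 55.5, 57.6 and 19.7 CPM in control replicates 1 to 4 and 30.7, 39.1, 39.1 and 63.4 CPM in cKO replicates 10 to 13 in rods. In cones it was at 900.2, 739, 827 and 825 CPM in the control libraries and 757, 822, 1094 and 514 CPM in the cKO libraries. Every cone value lay above every rod value, and the log2 difference was -4.25 ± 0.18 (SE; edgeR adjusted p = 5.54e-12). Gngt2, the cone gamma subunit gene, was at 22.8, 16.3, 3.84 and 14.8 CPM in the control libraries and 15.4, 24.0, 12.4 and 20.5 CPM in the cKO libraries in rods. Its cone levels were 119, 120.3, 63.6 and 69.3 CPM in the control libraries and 157, 225, 184 and 132 CPM in the cKO libraries. Again the classes did not overlap, with a log2 difference of -3.12 ± 0.19 (SE; edgeR adjusted p = 5.95e-10).

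The catalytic subunits of rod PDE6 showed a wide gap. Pde6a was at 944, 1363, 999 and 1545 CPM in the control libraries and 1015, 808, 1498 and 1121 CPM in the cKO libraries in rods. In cones it was at 81.8, 56.8, 63.6 and 75.6 CPM in the control libraries and 62.1, 109, 148 and 126 CPM in the cKO libraries. Pde6b was at 1092, 1470.4, 1210.4 and 1506 CPM in the control libraries and 1261, 961, 1599.6 and 1444 CPM in the cKO libraries in rods. Its cone values were 137, 40.1, 70.0 and 170.1 CPM in the control libraries and 44.4, 70.7, 156 and 153 CPM in the cKO libraries. For both genes every cone value lay below every rod value, with log2 differences of 3.59 ± 0.16 (SE; edgeR adjusted p = 1.15e-11) and 3.62 ± 0.20 (SE; edgeR adjusted p = 1.56e-10). The inhibitory subunit gene Pde6g differed less, by 1.41 ± 0.13 (SE; edgeR adjusted p = 1.21e-07).

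CNG channel genes separated the classes in both directions. Cnga1, the rod alpha subunit, was at 484, 653, 573 and 627 CPM in the control libraries and 479.6, 601, 751 and 690.4 CPM in the cKO libraries in rods. In cones it was at 79.2, 43.4, 19.1 and 56.7 CPM in the control libraries and 59.2, 64.2, 82.0 and 62.8 CPM in the cKO libraries. Cngb1, the rod beta subunit, was at 479, 578, 465 and 661 CPM in the control libraries and 541, 382, 673 and 589.6 CPM in the cKO libraries in rods and at 31.7 to 58.6 CPM (median 45.9) in cones, where the control libraries held 31.7, 46.8, 35.0 and 56.7 CPM and the cKO libraries 32.5, 45.0, 58.6 and 53.8 CPM. The log2 differences were 3.28 ± 0.17 (SE; edgeR adjusted p = 4.48e-11) for Cnga1 and 3.53 ± 0.13 (SE; edgeR adjusted p = 5.52e-13) for Cngb1, and no cone value reached a rod value. With the order-of-magnitude step alone they were 2.38 and 2.51. Cnga3, the cone alpha subunit, had 0 UMIs in the rods of all 8 libraries, which allows up to 0.918 CPM over the 3268652 rod UMIs. In cones it was at 68.6, 100.3, 66.8 and 113 CPM in the control libraries and 50.3, 161, 129 and 47.1 CPM in the cKO libraries. From 191 UMIs in all cones, Cnga3 was at least 88.7-fold higher in cones than that limit over all rods. With gates free of members, which gated 1945 rods and 169 cones, its log2 difference was -3.78. Of the sodium/calcium, potassium exchangers, Slc24a1 of rods was higher in rods by 2.63 ± 0.15 and Slc24a2 of cones differed by -2.66 ± 0.20 on the log2 scale (SE; both called).

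Genes of shutoff and of cGMP synthesis include most of the shared members, of which Crx alone was not called higher in rods. Among the rod members, Sag, the rod arrestin gene, was at 2909.7 ± 553 CPM in rods and 1340.2 ± 273 CPM in cones (SD, n = 8), a log2 difference of 1.03 ± 0.10. Rgs9, Grk1, Rcvrn, Rgs9bp and Pdc, which regulate or end the response, differed by 0.62 ± 0.10, 1.19 ± 0.12, 1.20 ± 0.13, 1.42 ± 0.17 and 1.61 ± 0.13. The guanylate cyclase gene Gucy2e differed by 1.09 ± 0.13, and its activator Guca1a by 0.78 ± 0.11. Guca1b, a second activator, was called higher as well. The second cyclase gene, Gucy2f, showed the widest gap among the members outside the gates that were higher in rods. It was at 336, 405, 396 and 469 CPM in the control libraries and 364, 330.5, 552 and 487 CPM in the cKO libraries in rods. In cones it was at 26.4, 6.68, 12.7 and 12.6 CPM in the control libraries and 14.8, 19.3, 46.9 and 40.4 CPM in the cKO libraries. Its log2 difference was 4.06 ± 0.19 (SE; edgeR adjusted p = 2.03e-11), and the lowest rod value was above the highest cone value. With the order-of-magnitude step alone, the differences of Gucy2f, Pde6a and Pde6b narrowed to 2.56, 2.26 and 2.19. In retinoid handling, Abca4 and Rdh12 differed by 1.12 ± 0.11 and 1.61 ± 0.13.

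Opn1sw encodes the short-wavelength and Opn1mw the medium-wavelength cone opsin, and neither gene was used to gate cones. Opn1sw was at 29.1, 6.53, 11.5 and 9.87 CPM in the control libraries and 30.7, 18.0, 30.2 and 20.5 CPM in the cKO libraries in rods. In cones it was at 799.9, 916, 760.0 and 857 CPM in the control libraries and 811, 1111, 1449 and 617 CPM in the cKO libraries. Opn1mw was at 4.15, 6.53, 7.68 and 4.94 CPM in the control libraries and 5.12, 21.0, 21.3 and 11.2 CPM in the cKO libraries in rods. Its cone levels were 2041, 2526, 2156 and 2035 CPM in the control libraries and 1358, 2403, 3640.1 and 1431 CPM in the cKO libraries. The log2 differences were -5.48 ± 0.19 (SE; edgeR adjusted p = 2.67e-13) and -7.75 ± 0.19 (SE; edgeR adjusted p = 1.58e-15), with no overlap between the classes. With gates free of members, which left 169 cones, Opn1mw was at -3.11.

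The 7 gate members had to differ between rods and cones in the nuclei they gated, so each was also read in nuclei gated without it. In that reading, Nrl and Nr2e3, the transcription factors that set rod identity, remained higher in rods by 2.80 ± 0.14 and 3.25 ± 0.21. Arr3 (cone arrestin), Cngb3 and Pde6c were lower in rods, with -8.31 ± 0.21, -6.24 ± 0.29 and -7.11 ± 0.21, and Gnat2 and Pde6h by -5.39 ± 0.21 and -4.67 ± 0.15 (log2 difference ± SE; all 7 called by edgeR). The rod values of Cngb3 moved most with its own gate, from 7.32 CPM to 46.0 CPM (means of 8 libraries). These 7 stand as descriptions of the gates.

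**Figure D1:**
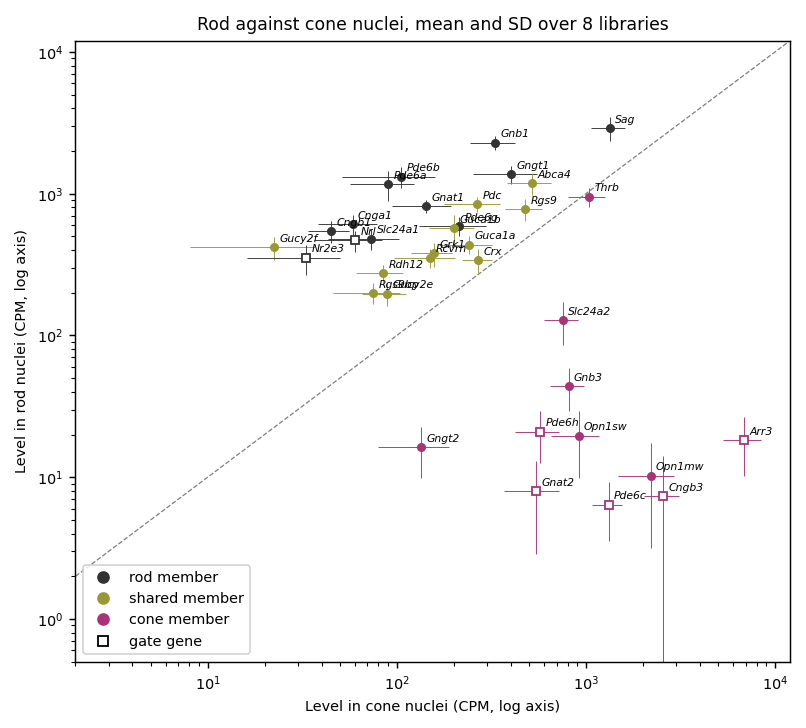
Mean level of each member in rod nuclei (vertical, CPM, log axis) against cone nuclei (horizontal, CPM, log axis), with SD over 8 libraries as bars and open squares for gate genes; Cnga3 is not drawn because it was at 0 in rods. Rod and shared members lie above the dashed line of equal level and cone members below it, with Thrb at 952 CPM in rods and 1035 CPM in cones.

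Rods were then set against the free RNA of the same libraries. Barcodes below the order-of-magnitude cut counted as nuclei only where their profile departed from that free RNA. With the order-of-magnitude step alone 308 rods were gated, against 2158 with the added barcodes. Differences from free RNA, here and in the other classes below, are thus partly set by how nuclei were called. Of 28 members outside the gates that were tested, 13 were higher in rod nuclei and 10 lower, and of all 12556 genes tested 36.4% were higher and 35.4% lower. The median over all genes tested was 0.024 on the log2 scale and -0.18 with DESeq2 size factors, under which Rgs9bp lost its call and Pdc became a lower call, giving 12 higher and 11 lower. Of the 10 rod members outside the gates, 4 rose, 3 fell and 3 were not called. The 3 that fell were Gngt1, Gnat1 and Pde6g.

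Thrb, counted here among the cone members, was the member furthest above free RNA in rods. It was at 766, 1006, 941 and 1130.5 CPM in control replicates 1 to 4 and 906, 718, 1120.3 and 1030.0 CPM in cKO replicates 10 to 13 in rod nuclei. In empty droplets it was at 39.8 to 98.2 CPM (median 64.7). Every rod value lay above every empty-droplet value, with a log2 difference of 3.97 ± 0.11 (SE; edgeR adjusted p = 4.49e-16). Thrb encodes a receptor best known in the retina for its part in the choice of cone opsin, and its gene (GRCm39, chr14:4429815-4809435, minus strand, 379.6 kb) is the longest of the members. The annotation places another gene on the same strand over it, so a part of its UMIs could belong to either, and the same holds for Cnga1, Guca1a, Pdc, Nr2e3 and Cngb3. Gucy2f followed, with 28.7 to 49.4 CPM (median 40.0) in empty droplets and a log2 difference of 3.49 ± 0.13 (SE; edgeR adjusted p = 1.45e-14). Abca4, a retinoid transporter of the outer segment discs, was at 917, 1255, 1129.7 and 1441 CPM in the control libraries and 1091, 937, 1522 and 1213 CPM in the cKO libraries in rods. Its free RNA level was 151 to 247 CPM (median 205), and the log2 difference was 2.66 ± 0.14 (SE; edgeR adjusted p = 1.02e-12). Pde6b and Pde6a, at 280.3 to 564 CPM (median 386) and 257 to 396 CPM (median 356) in free RNA, were higher in rods by 1.86 ± 0.14 (SE; edgeR adjusted p = 5.20e-10) and 1.82 ± 0.13 (SE; edgeR adjusted p = 1.70e-10). When only the deeper barcodes of the order-of-magnitude step counted as nuclei these 2 calls were lost, with log2 differences of 0.34 and 0.31, on 308 rods of higher depth. There Gucy2f and Abca4 were lower, at 2.04 and 1.16, but still called.

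At the other end the lowest members were Gngt2, Opn1sw and Opn1mw of cones, followed by Gngt1 and Gnat1 of rods. Gngt1 was at 1308, 1329.9, 1222 and 1179.8 CPM in the control libraries and 1254, 1670.3, 1727 and 1288 CPM in the cKO libraries in rods. In free RNA it was at 4469.6, 3211, 3537 and 3068 CPM in the control libraries and 4145, 5104, 3305 and 3317 CPM in the cKO libraries. Each library had less in its rods than in its empty droplets, and the log2 difference was -1.34 ± 0.11 (SE; edgeR adjusted p = 1.18e-09). Gnat1 was at 803, 745, 669 and 819 CPM in the control libraries and 843, 958, 827 and 851 CPM in the cKO libraries in rods. Its free RNA level was 2205, 1439.9, 1289.9 and 1728 CPM in the control libraries and 1869.9, 1812, 1478 and 1864 CPM in the cKO libraries. The log2 difference was -0.95 ± 0.09 (SE; edgeR adjusted p = 1.35e-08). With the order-of-magnitude step alone, Gngt1, Gnat1 and Opn1sw were at -2.84, -2.29 and -4.51. Pde6g (-0.92 ± 0.10), the calcium sensor gene Rcvrn (-0.90 ± 0.11) and Guca1a (-0.72 ± 0.10) also fell. Of the 6 cone members outside the gates that were tested, 5 fell in rods and Thrb rose. Gngt2 at 96.4 to 185 CPM (median 116) in free RNA fell by 2.84, Opn1sw at 101 to 156 CPM (median 128) fell by 2.52 and Opn1mw at 49.1 to 83.0 CPM (median 55.0) fell by 2.37 on the log2 scale. In the same fit all 8 genes of an RGC list were lower in rods, with a median of -2.92. The rod gate itself limits UMIs of RGC marker genes. The low level of the RGC list is therefore partly set by the gate and is no measure of free RNA in rods. How much of the rod level of these cone genes is free RNA was not tested. With gates free of any member, Opn1mw reversed to 2.46 in rods, where other genes gated 1945 rods and 169 cones.

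The order of the rod and shared members went with the length of their genes. Over 24 rod and shared members, whose genes span 5.24 to 135.7 kb with introns, the log2 difference between rod nuclei and free RNA had a Spearman rho of 0.78 and a Pearson r of 0.80 with log2 gene length. These are correlations across genes of the same libraries, which are not independent replicates. The relation over all genes tested is not given here, so it is not shown to be particular to these members. Of the 12 shorter genes (up to 16.9 kb) 7 had values below 0, with a median of -0.30, and of the 12 longer genes (from 17.9 kb) 0 did, with a median of 1.32. Without the gate genes, 22 members gave a rho of 0.77. Gnb1 departed from this order, with 0.22 ± 0.11 at 78.2 kb, as did Cnga1 with 0.39 ± 0.13 at 40.6 kb. Whether intronic reads were counted is not given in the sources used here, and the part of unspliced RNA was not tested.

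**Figure D2:**
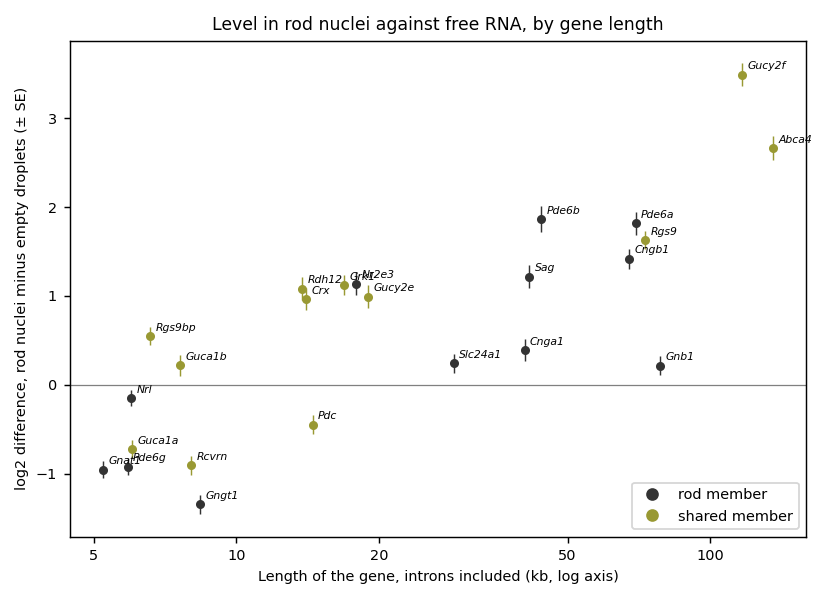
Log2 difference between rod nuclei and empty droplets (vertical, ± SE, edgeR over 8 libraries) against gene length with introns (horizontal, kb, log axis) for the 24 rod and shared members. The 12 genes from 17.9 kb upward lie above 0 and 7 of the 12 shorter genes lie below it.

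In cone nuclei, 8 of 29 members outside the gates were higher than in free RNA and 16 lower, and of all 12626 genes tested 33.4% were higher and 39.1% lower, with a median of -0.12. Of 10 rod members outside the gates, 9 fell and 0 rose. Sag was the one that was not called, with -0.065 ± 0.13. It was at 1272, 1046, 1301 and 1512 CPM in the control libraries and 1029.5, 1433, 1875 and 1254 CPM in the cKO libraries in cone nuclei, against 1089 to 1719.9 CPM (median 1333) in free RNA. Control replicate 2 and cKO replicate 10 lay below the free RNA range, cKO replicate 12 above it and the other 5 within it. The other 9 stood at 8.42 to 27.1% of their free RNA level (means of 8 libraries), where a list of 8 RGC genes stood at 7.14 ± 3.11% in control and 12.7 ± 4.80% in cKO cones (SD, n = 4 each). The cone gate limits UMIs of RGC marker genes. Even in RGC nuclei, 7 genes of this list were called lower than in free RNA and 1 higher, with a median log2 difference of -1.19. A low share of the free RNA level thus does not show that a class lacks a gene.

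Of 7 cone members outside the gates, 6 were higher in cones than in free RNA. Opn1mw, Cnga3, Gnb3 and Opn1sw rose by 5.13 ± 0.17, 5.01 ± 0.28, 3.19 ± 0.13 and 2.73 ± 0.14, and Thrb and Slc24a2 by 3.92 ± 0.15 and 1.93 ± 0.13 (log2 difference ± SE, edgeR). Gngt2, at -0.0076 ± 0.16, was not called, with 63.6 to 225 CPM (median 126) in cone nuclei and 96.4 to 185 CPM (median 116) in free RNA. Of the 12 shared members, Abca4 (1.29 ± 0.13) and Rgs9 (0.75 ± 0.11) rose, 7 fell, and Crx (0.48 ± 0.13), Grk1 (-0.33 ± 0.12) and Gucy2e (-0.35 ± 0.15) were not called. Gucy2f, higher in rods than in free RNA, was lower in cones (-0.86 ± 0.23).

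RGCs are the cells the sort was made for. All 29 members outside the gates were called against free RNA, 27 lower and 2 higher, and of all 16499 genes tested 37.7% were lower and 39.3% higher. The rod members outside the gates had a median log2 difference of -4.70. Gnat1, Sag and Gngt1 were at 3.42 ± 0.767%, 3.31 ± 0.642% and 2.52 ± 0.627% of their free RNA level (SD, n = 8). Members that departed from this low level were Slc24a2, at 217 ± 32.5%, Thrb at 339 ± 87.7%, Rgs9 at 22.8 ± 1.75% and Gnb1 at 13.8 ± 1.03%. Slc24a2 and Thrb were the 2 higher calls at log2 differences of 1.25 ± 0.08 and 1.87 ± 0.08.

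Bipolar cells, the next neurons of the pathway and kin of photoreceptors, held 2 members above free RNA. Of 28 tested outside the gates, 24 were lower than in free RNA and 2 higher, and of all 12613 genes tested 43.4% were lower and 33.4% higher, with a median of -0.23. Gnb3, known also as a bipolar G protein subunit, rose by 2.83 ± 0.09 (SE; edgeR adjusted p = 2.14e-23), at 459 to 634 CPM (median 514) in bipolar nuclei and 64.2 to 111 CPM (median 84.1) in free RNA. Slc24a2 rose by 0.64 ± 0.08. The gate member Cngb3, a cone gate gene that works against the bipolar gate, was also above free RNA, by 2.89 ± 0.20, as a description. Crx and Thrb were not called (-0.33 ± 0.11 and -0.037 ± 0.16). Among those that fell, Abca4 (-0.93 ± 0.11) and Cngb1 (-1.16 ± 0.10) fell least, whereas Gnat1 and Guca1a fell by 3.56 and 3.86.

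Glia and amacrine cells were not tested against free RNA and are described by their ratios. Gnat1 was at 4.23 ± 1.11% of its free RNA level in amacrine nuclei and at 8.70 ± 1.61% in glia. Thrb was at 664 ± 206% and 988 ± 169.9%. Slc24a2 was at 228 ± 44.7% in amacrine nuclei. Cngb3, a cone gate gene that works against the amacrine gate, was at 202 ± 66.7% there, as a description. Gucy2f was at 181 ± 46.6% in glia, from 307 UMIs, and at 4.85 ± 2.08% in amacrine nuclei (mean ± SD, n = 8 libraries).

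**Figure D3:**
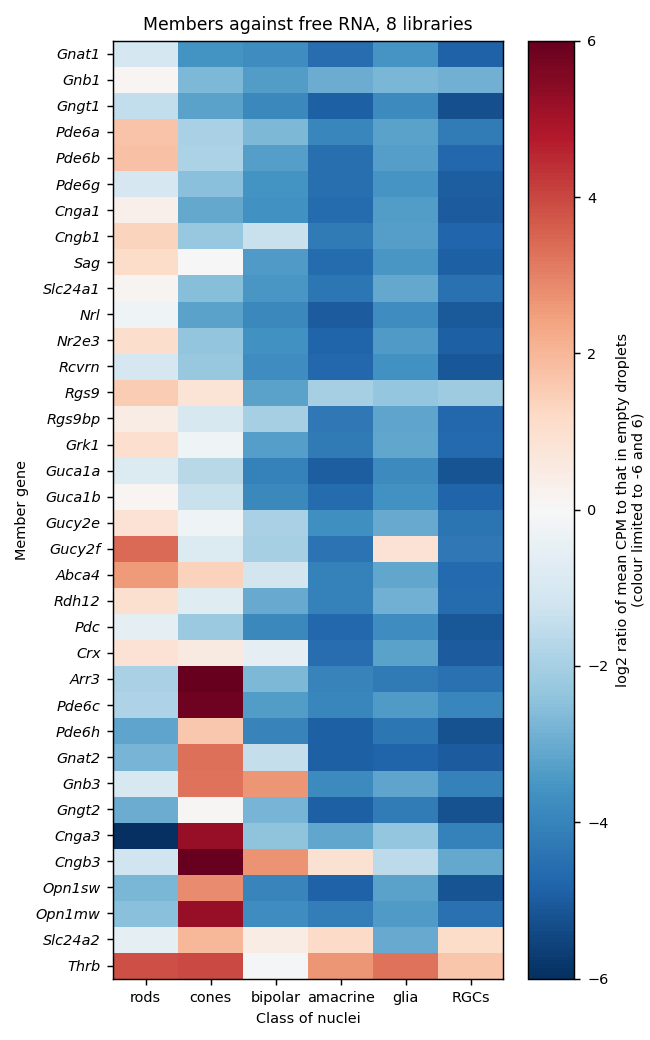
Log2 ratio of the mean CPM of each member (rows) in 6 classes of nuclei (columns) to its mean CPM in empty droplets, over 8 libraries, with red above and blue below free RNA and colours limited at -6 and 6; Cnga3 was at 0 in rods. Outside rods, rod members are blue except Sag, which is pale in cones, and Thrb and Slc24a2 are red in RGCs, where they stand at 339% and 217% of free RNA.

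Mouse cones are known to make either opsin or both, and the opsins were counted per cone. Each cone was thinned to 1000 UMIs, which left out 26 of 685 shallower cones (11 control and 15 cKO). Of the remaining 659, 40.2% had an Opn1sw UMI, 61.8% an Opn1mw UMI, 28.7% both and 26.7% neither. Unthinned, the shares were 47.0%, 67.2%, 37.1% and 22.9%. As a background, thinned rods had an Opn1sw UMI in 2.04% and an Opn1mw UMI in 0.755% of 1324 nuclei, and thinned RGCs in 0.458% and 0.303% of 19444. No rod of 2158 had UMIs of both, which allows a share of up to 0.139%. Of 454 cones with at least 5 opsin UMIs, 192 had over 90% of them from Opn1mw, 49 over 90% from Opn1sw, and 213 were mixed. Opn1sw made up 28.2, 26.6, 26.1 and 29.6% of the opsin UMIs in the cones of control replicates 1 to 4 and 37.4, 31.6, 28.5 and 30.1% in those of cKO replicates 10 to 13. These shares overlapped between the genotypes.

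Between genotypes, the thinned share of cones with an Opn1sw UMI was 39.1, 42.3, 42.2 and 38.7% in control replicates 1 to 4 and 35.7, 44.1, 47.3 and 34.4% in cKO replicates 10 to 13. For Opn1mw it was 64.7, 63.4, 56.6 and 61.3% in control and 52.0, 71.2, 76.9 and 50.5% in cKO libraries. For both opsins it was 29.3, 33.8, 25.3 and 22.6% in control and 23.5, 33.9, 37.4 and 22.6% in cKO libraries. For each opsin alone the cKO libraries lay on both sides of the control range, and for both opsins together 2 cKO libraries lay above it and 2 within it. Opn1sw averaged 40.6 ± 1.92% and 40.4 ± 6.28% (SD, n = 4 libraries; exact permutation p = 1, two-sided) and Opn1mw 61.5 ± 3.53% and 62.7 ± 13.4% (exact permutation p = 0.857). For both opsins they were 27.8 ± 4.89% and 29.3 ± 7.42% (exact permutation p = 0.714). With 4 against 4 libraries the smallest p this test can give is 0.0286. The 3 tests gave Benjamini-Hochberg adjusted p-values of 1. Of 15 alternatives, the direction of the difference turned in 7 for Opn1sw, in 9 for Opn1mw (to -18.9 percentage points with gates free of members) and in 7 for both, so no direction is given.

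**Figure D4:**
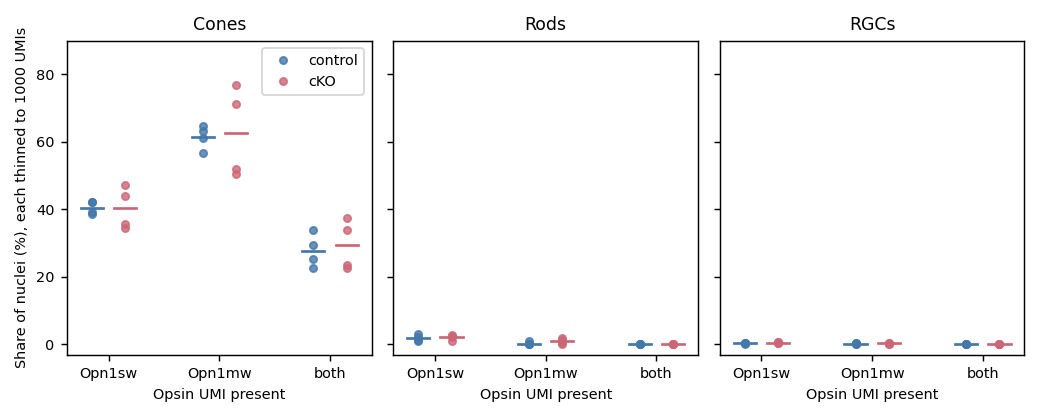
Share of nuclei with a UMI of Opn1sw, of Opn1mw or of both (vertical, %), each nucleus thinned to 1000 UMIs, per library (points) and group mean (lines), in cones, rods and RGCs. Cone shares lie between 22.6 and 76.9%, those of rods and RGCs near the bottom of the axis, and for each opsin alone the cKO libraries spread to both sides of the control libraries.

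Rods made up 10.0, 4.23, 4.65 and 5.65% of gated nuclei in control replicates 1 to 4 and 10.4, 6.26, 10.1 and 11.3% in cKO replicates 10 to 13. All cKO libraries but replicate 11 lay above all control libraries. Control libraries averaged 6.14 ± 2.66% and cKO libraries 9.53 ± 2.24% (SD, n = 4; two-sided exact permutation p = 0.0571), and with the order-of-magnitude step alone the difference of 3.39 percentage points became -0.043. Cones made up 4.15, 1.88, 2.38 and 1.62% of control and 2.82, 1.72, 2.15 and 3.29% of cKO nuclei. Their means were 2.51 ± 1.14% and 2.50 ± 0.696% (exact permutation p = 1; adjusted over both shares, 0.114 for rods and 1 for cones). Both shares are of nuclei that passed a sort for ganglion cells.

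Within rods, no member was called between cKO and control. Of 27 members tested, 0 were called, and of all 7494 genes tested 0% were called by edgeR (241 had an unadjusted p under 0.05, and DESeq2 called 3 genes, none of them a member). The 9 members not tested were cone genes too low in rods. Among them Arr3, Pde6c, Pde6h, Gnat2 and Cngb3 are gate genes that the rod gate itself holds low. In rods gated without the gene, Arr3, Pde6h and Cngb3 differed by -0.26 ± 0.40, 0.058 ± 0.38 and -0.29 ± 0.47 (SE) and were not called. Differences of the tested members ran from -0.28 to 0.27 with a median of 0.049 (0.0056 over all genes). Their SE was 0.14 to 0.32, and all 27 of their 95% intervals lay within a change of 1 on the log2 scale. The 6 members with the smallest p are given in full.

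Nrl, the rod fate factor, was at 479, 382, 396 and 425 CPM in control replicates 1 to 4 and 521, 535, 604 and 403 CPM in cKO replicates 10 to 13 in rods. The genotypes overlapped, and the log2 difference was 0.27 ± 0.16 (SE), with a 95% interval from -0.08 to 0.61 and an unadjusted p of 0.121. In rods gated without Nrl it was 0.25 ± 0.15. Crx was at 309, 389, 319 and 474 CPM in the control libraries and 311, 279, 364 and 284 CPM in the cKO libraries. Of the cKO libraries, replicates 11 and 13 lay below the control range and replicates 10 and 12 within it, and the log2 difference was -0.28 ± 0.17 (SE), with a 95% interval from -0.65 to 0.10 and an unadjusted p of 0.132. Rcvrn was at 322, 359, 273 and 341 CPM in the control libraries and 387, 369.5, 456 and 327 CPM in the cKO libraries, with overlap. Its log2 difference was 0.23 ± 0.16 (SE), with a 95% interval from -0.11 to 0.57 and an unadjusted p of 0.169. Gucy2e was at 197, 163, 154 and 197 CPM in the control libraries and 186, 177, 263 and 233 CPM in the cKO libraries. The ranges overlapped, with a log2 difference of 0.25 ± 0.18 (SE), with a 95% interval from -0.13 to 0.64 and an unadjusted p of 0.178. Guca1a, a cyclase activator, was at 415, 428, 415 and 341 CPM in the control libraries and 435, 466, 568 and 425 CPM in the cKO libraries. Here cKO replicate 13 lay within the control range, and the log2 difference was 0.22 ± 0.15 (SE), with a 95% interval from -0.11 to 0.55 and an unadjusted p of 0.181. Gngt1, given above per library, differed by 0.21 ± 0.16 (SE), with a 95% interval from -0.13 to 0.56 and an unadjusted p of 0.207. The edgeR adjusted p was 1.00 for each of these 6 genes. With the order-of-magnitude step alone, Nrl, Guca1a and Gngt1 were at 0.037, 0.067 and 0.010 and Rcvrn turned to -0.11. Gucy2e turned to -0.063 with filters on genes and mitochondrial share only. The highest values over the alternatives were 0.55 for Gucy2e and 0.43 for Guca1a. Without cKO replicate 12, Nrl, Guca1a and Gngt1 were at 0.18, 0.11 and 0.13. Without control replicate 4, Crx was at -0.16. Gnat1 was the member of rods whose groups did not overlap in CPM, from 669 to 819 CPM in control and 827 to 958 CPM in cKO rods. Its log2 difference was 0.17 ± 0.14 (SE), with a 95% interval from -0.14 to 0.49 and an unadjusted p of 0.25. It is named after its values were seen. Random labels of 4 against 4 libraries separate a single gene fully with a probability of 0.0286, and the share over all genes is not given here.

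Within cones, 34 members were tested and 0 were called, as were 0% of all 6031 genes tested by edgeR (176 had an unadjusted p under 0.05, and DESeq2 called 1 gene, not a member). Differences ran from -0.32 to 0.81 with SE of 0.20 to 0.43, and 26 of 34 intervals lay within a change of 1. Gucy2f and Nr2e3 were too low to test. The 11 rod members tested, the gate gene Nrl among them, had positive values, with a median of 0.42, against a median of -0.0034 over all genes. In these same cones the summed RGC gene list was at 11.5, 5.55, 4.48 and 6.98% of its free RNA level in control and 7.80, 16.9, 9.40 and 16.8% in cKO libraries (exact permutation p = 0.114). The cone gate limits UMIs of RGC marker genes, so the RGC list does not measure how much free RNA the cones carry. The part of free RNA in these values was not tested.

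Gngt2, at 63.6 to 120.3 CPM in control and 132 to 225 CPM in cKO cones, had groups that did not overlap, and the share of all genes with such groups is not given here. Its log2 difference was 0.81 ± 0.25 (SE), with a 95% interval from 0.28 to 1.33 and an unadjusted p of 0.00524. With the order-of-magnitude step alone it was 0.45 for Gngt2 and 0.39 for Pde6a. Pde6a, given above per library, differed by 0.65 ± 0.27 (SE), with a 95% interval from 0.067 to 1.24 and an unadjusted p of 0.0313, with overlap at cKO replicate 10. Gnat1 was at 174, 100.3, 92.2 and 81.9 CPM in control replicates 1 to 4 and 195, 128, 211 and 164 CPM in cKO replicates 10 to 13 in cones. Control replicate 1 lay within the cKO range, and the log2 difference was 0.59 ± 0.25 (SE), with a 95% interval from 0.056 to 1.12 and an unadjusted p of 0.0326. Nrl was at 66.0, 40.1, 47.7 and 18.9 CPM in the control libraries and 85.8, 77.1, 85.9 and 58.3 CPM in the cKO libraries. Its log2 difference was 0.68 ± 0.30 (SE), with a 95% interval from 0.04 to 1.32 and an unadjusted p of 0.0387, with overlap at control replicate 1. Nrl is a gate gene, and in cones gated without it the difference was 0.73 ± 0.31 (SE) and not called. Gnb1 was at 351, 231, 235 and 302 CPM in the control libraries and 284, 482, 418 and 357 CPM in the cKO libraries. The log2 difference was 0.42 ± 0.20 (SE), with a 95% interval from -0.021 to 0.85 and an unadjusted p of 0.0603, and with gates free of members it turned to -0.21. Pde6g was at 267, 137, 159 and 132 CPM in the control libraries and 269, 308, 316 and 128 CPM in the cKO libraries. Its ranges overlapped, and the log2 difference was 0.46 ± 0.28 (SE), with a 95% interval from -0.14 to 1.06 and an unadjusted p of 0.124. The edgeR adjusted p was 0.999 for each of these 6. Without control replicate 1, Gnat1 was at 0.91 and Pde6g at 0.77.

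The cone opsins differed between genotypes in cones by 0.21 ± 0.23 (SE), with a 95% interval from -0.27 to 0.70 and an unadjusted p of 0.364 for Opn1sw and by -0.03 ± 0.28 (SE), with a 95% interval from -0.62 to 0.56 and an unadjusted p of 0.914 for Opn1mw. Arr3, Gnat2, Cnga3 and Pde6c differed by -0.12 ± 0.26, -0.13 ± 0.27, 0.024 ± 0.36 and -0.13 ± 0.20 (log2 difference ± SE).

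**Figure D5:**
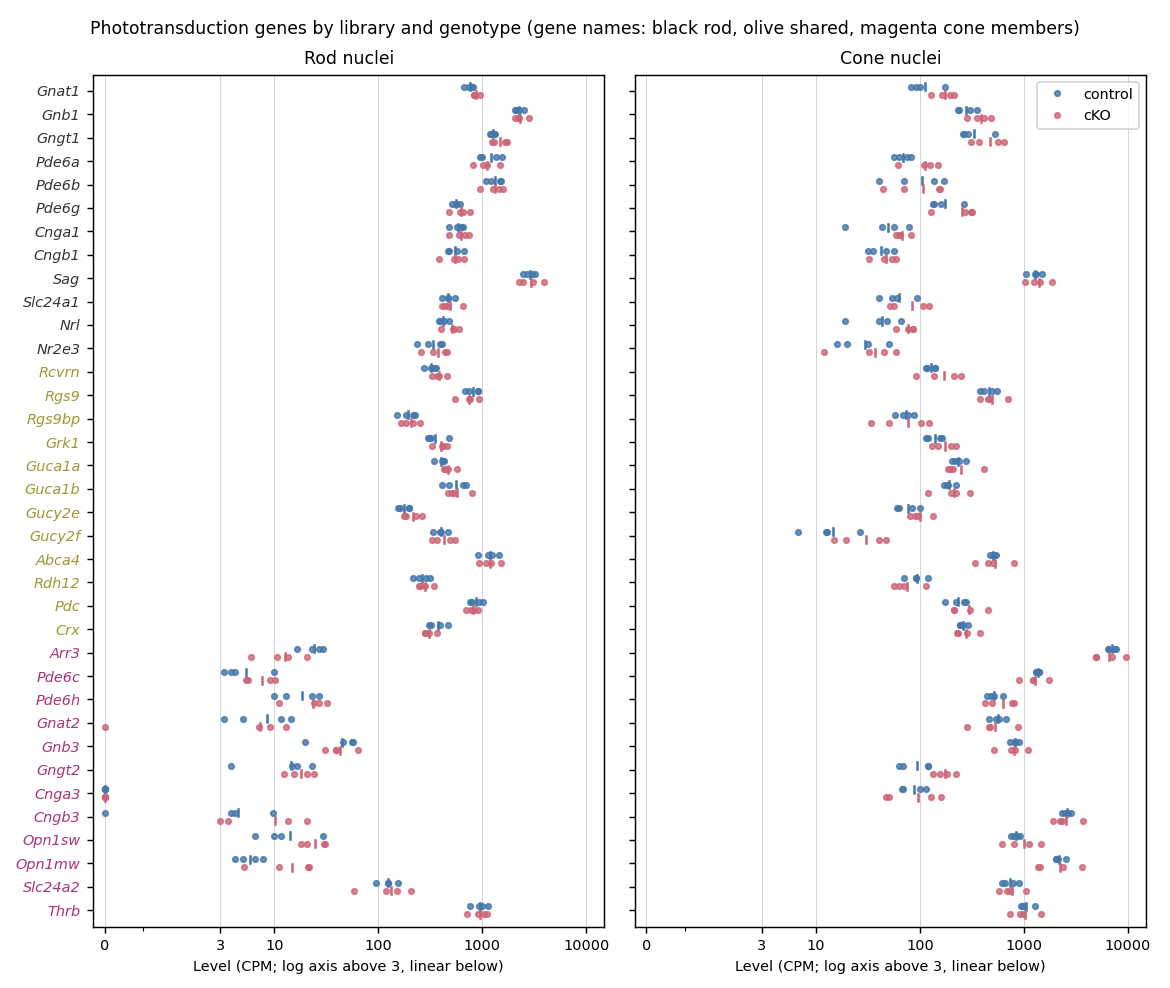
Level of each member (horizontal, CPM, log axis above 3 and linear below) in rod nuclei (left) and cone nuclei (right), with 1 point per library in blue for control and red for cKO and short lines for group means. Points of the genotypes interleave for nearly all members, and the cone panel shows Gngt2 with all 4 cKO points (132 to 225 CPM) above the control points.

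Free RNA gave the same count for the genotypes. Of 36 members tested in empty droplets 0 were called, as were 0% of 14455 genes (309 with an unadjusted p under 0.05, and DESeq2 called 2 genes, not members), and members differed by -0.20 to 0.28. The interaction, which asks whether the genotype difference in cones departs from that in rods, called 0 of 36 members and 0% of 7698 genes (301 with an unadjusted p under 0.05, and DESeq2 called 0). Cnga3 counts among the 36 but had 0 UMIs in rods, and with an SE of 9535 it could not have been called. The cone gate genes are held low in rods by the gate. The lowest unadjusted p-values were those of Opn1mw, with a cone minus rod difference of -1.26 ± 0.46, and Pde6a, with 0.71 ± 0.29 (unadjusted p = 0.0209 and 0.0265). Rod levels of Opn1mw, from 35 UMIs in all, carry the first of these.

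A wider list of 28 other phototransduction and photoreceptor genes was read in the same fits. Between genotypes, 0 of 26 tested in rods, 0 of 25 in cones and 0 of 28 in free RNA were called. Between cell classes the list is not described, since it holds many gate genes, such as Rp1, Prph2 and Rxrg.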

How the data were processed

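For each of 8 libraries the authors deposited UMI counts (raw, genes by barcodes) that list all observed barcodes, without a cell annotation. Per the submitters' processing notes and the study's methods they were made with Cell Ranger 7.0.0 on GRCm39, while the file headers carry the string of an earlier Cell Ranger version. Whether intronic reads were counted is not given in the sources used here, and none of the study's later steps (removal of free RNA, filters, doublet removal) is in the deposited counts. Groups and replicate numbers came from the sample labels.

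Nuclei were called again from the counts. The order-of-magnitude step took barcodes that reached 10% of the UMI total at the 99th percentile of the top 8000, and an ambient-profile test (10000 simulations, false discovery rate 0.001) added barcodes of at least 500 UMIs. Quality filters removed nuclei of fewer than 200 genes or more than 5% mitochondrial UMIs and those 5 median absolute deviations out (3 for mitochondrial share), and then the top Scrublet scores (0.8% per 1000 nuclei; scanpy 1.11.5). Of 45918 nuclei called, 9606 were removed by quality and 1377 as doublets. Rods were reduced most by the rule on median absolute deviations. With filters on genes and mitochondrial share only, 5437 rods were gated (2404 control and 3033 cKO). With all filters 2158 were gated (777 control and 1381 cKO). Gates on marker UMIs gave the classes (at least 3 UMIs from 2 genes and 2 times the next class). Cones needed 3 UMIs from 2 cone genes, and rods at least 1 rod and at most 1 cone UMI. Empty droplets were barcode ranks 45000 to 90000.

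Counts were summed per library and class and fitted in R 4.3.3 by edgeR 4.0.16 (quasi-likelihood F test, TMM, filterByExpr, Benjamini-Hochberg adjustment over all genes tested), with genotype alone or with library as a block between classes. Calls needed both an adjusted p below 0.05 and a log2 difference beyond 0.5 in size. DESeq2 1.42.0 was an alternative, and single values had exact permutation tests. On simulated counts, 50% of genes changed by 1 and 87% of those changed by 2 on the log2 scale were recovered in the rod genotype comparison (7494 genes), and 36% and 85% in that of cones (6031 genes). Depth was 35697629 to 60088630 UMIs per library, and limits of 3 counts cover counting error only, while intervals of fitted differences include the spread between libraries.

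The members and lists were chosen with earlier results of these data known. Named in full were the 6 members with the smallest p in rods and in cones (no member was called), the 5 highest and 5 lowest outside the gates in rods against free RNA and against cones, and both opsins. Other members are given by counts, ranges and fitted differences, and Sag in cones, the rod member not called there, was given per library after its values were seen.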

Additional observations from a re-analysis of the deposited data

Results flagged for a closer look

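In 9 of 134 sets of 4 libraries tested, 1 library lay far from the other 3 of its genotype by Dixon's gap test, where chance marks about 1 in 20. In rods, Guca1a was at 341 CPM in control replicate 4, against 415 to 428 CPM in the other control libraries. In cones, Gngt1 was at 525 CPM in control replicate 1 (258 to 291 CPM in the others), Guca1a at 414 CPM in cKO replicate 12 (186 to 210.0 CPM) and Thrb at 1279.9 CPM in control replicate 2 (945 to 977 CPM). In free RNA, control replicate 1 stood high for Cnga1 (597 CPM against 467 to 488), Pde6g (1449 CPM against 1083 to 1108) and Rcvrn (920.1 CPM against 627 to 641). In free RNA, cKO replicate 12 stood high for Cngb1 (237 CPM against 217 to 220.4) and low for Gnat1 (1478 CPM against 1812 to 1869.9).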

How the results depend on the processing

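No paired analysis was possible because the genotypes share no replicate numbers. No member was called between genotypes in rods, cones, free RNA or the interaction under any alternative run, and the counts of members called outside the gates were 21 to 27 (rods against cones), 20 to 24 (rods against free RNA), 24 to 26 (cones), 28 to 29 (RGCs) and 26 to 27 (bipolar cells). The cause of the changes that follow was not tested. When the order-of-magnitude step alone called nuclei, the rod genotype difference of Rcvrn became -0.11 and the rod share difference -0.043 percentage points. With filters on genes and mitochondrial share only, Gucy2e in rods became -0.063. With gates free of members, Gnb1 in cones became -0.21 between genotypes and Opn1mw in rods against free RNA 2.46, and Opn1mw in rods against cones narrowed from -7.75 to -3.11.

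Genotype differences of the named members are given over 17 alternatives, or 16 for Pde6a and Nrl in cones, which were not tested in 1 of them. They ranged from 0.037 to 0.37 (Nrl), -0.37 to -0.16 (Crx), -0.11 to 0.28 (Rcvrn), -0.063 to 0.55 (Gucy2e), 0.067 to 0.43 (Guca1a) and 0.010 to 0.28 (Gngt1) in rods. In cones they ranged from 0.45 to 0.96 (Gngt2), 0.39 to 0.87 (Pde6a), 0.43 to 0.91 (Gnat1), 0.51 to 0.97 (Nrl), -0.21 to 0.56 (Gnb1) and 0.28 to 0.77 (Pde6g). Without control replicate 1, Gnat1 in cones was at 0.91 and Pde6g at 0.77. Without control replicate 4, Crx in rods was at -0.16.

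The differences below are cKO minus control in percentage points. The cone share became 0.096 without doublet removal and 0.00049 with gates free of members, and ranged from -0.31 to 0.53 as each library was left out. The thinned Opn1sw share became 3.31 with stricter gates, 1.41 with gates free of members and 0.77 unthinned, and ranged from -2.49 to 1.79 over libraries left out. The Opn1mw share became -4.15 (order-of-magnitude step alone), -5.45 (filters on genes and mitochondrial share), -3.53 (no doublet removal), -3.80 (stricter gates), -18.9 (gates free of members) and -1.37 (unthinned), ranging from -3.57 to 5.23. The share with both became -4.81, -5.89 and -1.42 under the first 3 of these, -11.5 with gates free of members and -1.07 unthinned, ranging from -1.10 to 3.82. The smallest library held 31 cones.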
